A study of Limodorum abortivum with 6 samples.

Results

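Transcription factors are proteins that bind short DNA motifs near genes and raise or lower their transcription, and plants hold large families of them that are named after their DNA-binding domain. Zinc finger proteins fold around zinc ions, and while many of them (C2H2, Dof, GATA) bind DNA, others bind RNA or act in protein complexes. In roots, members of these families are known from work in model plants for parts in hormone signalling, cell division, stress and, in legumes, the entry of symbiotic microbes. The genes described here are 66 genes assembled from roots of the orchid *Limodorum abortivum*. They were chosen by the words transcription factor, zinc finger, homeobox, MYB or WRKY in the description of their best UniProt match, without those described as chloroplastic, mitochondrial, kinase or receptor-like. They came from the 1159 genes in the readable rows of the study's table of plant genes, called listed plant genes here, out of 100005 assembled genes in the count files. All 66 identifiers were found in each file. The genes have no name of their own in this species, so that each is given by its assembly identifier and by the protein it resembled. A description is a sequence match to a protein of another species and not a tested function. The taxon assigned to a gene was an orchid for some, such as *Dendrobium catenatum* for MSTRG.1651. For others it was another plant or a broader plant group, such as *Hevea brasiliensis* for MSTRG.87. Whether each gene comes from the orchid was not tested.

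Roots of adult plants were collected at a single natural site, and RNA was extracted from segments of the roots of several individuals. The mycorrhizal group (LM) had 3 libraries, LM3, LM4 and LM6, and the non-mycorrhizal group (LS) had 3, LS2, LS3 and LS6. Both kinds of root had grown in nature, with whatever other microbes the site holds, and no treatment, age or genotype was given for either. LM roots were recognised by eye, as thicker and darker, and by hand-cut sections.

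Gene counts summed to between 4748078 and 6019195 per library, and 60 to 65 of the members had at least 1 count in an LM library and 58 to 62 in an LS library. The members took 0.140% to 0.176% of the gene counts in LM and 0.173% to 0.291% in LS. These gene counts include reads of fungi, which were on average more in LM, so that the shares do not compare plant expression. Sums scaled to plant reads, given below, overlapped between the groups. Reads that fell on more than 1 gene and were therefore not counted made up 10.8% to 11.7% of the reads assigned to genes in LM and 19.5% to 29.3% in LS, and their part in the results below was not tested. LS2 stood apart among the LS libraries. It held 69 counts of a gene described as a chlorophyll a-b binding protein (MSTRG.13), against at most 1 in any other library. As a check of the tissue, a gene described as RAX3 or MYB36 (MSTRG.1250), the latter a regulator of the root endodermis in Arabidopsis, had counts in all 6 libraries, from 2 to 16. With so few counts and an ambiguous description, this is a weak check. In whole root segments, a change in the share of a cell type and a change in RNA per cell cannot be told apart.

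Levels are CPM, that is, counts scaled to a fixed number of plant reads per library, after adjustment by edgeR's TMM factors. They are not divided by gene length, so that they compare libraries and not genes. Of the 66 members, 45 (68.2%) passed edgeR's filter on low counts, beside 62% of all listed plant genes. These 45 were tested in the fit of all 719 listed plant genes that passed. The quasi-likelihood test of edgeR with Benjamini-Hochberg adjustment called 0 members at an adjusted p under 0.05, and 0% of all genes tested were called. At an unadjusted p under 0.05 there were 8 members (17.8%), 3 higher and 5 lower in LM, beside 15.7% of all genes tested (8.34% higher and 7.37% lower). That number was 2 (4.35%) without LM3 and 3 (6.38%) without LM4, beside 11.9% and 10.6% of all genes tested. limma-voom called 0 members too, with 8 (17.8%) at an unadjusted p under 0.05, beside 14.9% of all genes. They were not all the same genes as in edgeR. DESeq2, which was run on all listed plant genes without that filter, called 3 of the 59 members to which it gave an adjusted p, beside 7.39% of the 1002 listed plant genes with one (3.99% higher and 3.39% lower). These 3 were a NAC gene and a Dof gene, higher in LM, and a TCP gene, lower in LM. With 1 library left out, DESeq2 called between 1 of 56 members (1.79%, beside 3.11% of listed plant genes, without LS6) and 7 of 52 (13.5%, beside 7.01%, without LM6), so that the members' share was below or above that of all listed plant genes depending on the library.

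The direction of the members was less even than that of all listed plant genes tested. The log2 fold change (LM minus LS) was below 0 for 32 of the 45 members (71.1%), beside 51.3% of the 719 genes, and its median was -0.32 over the members and -0.01 over all. Fitted with all genes of the files, 77.8% of the members and 64.7% of the listed plant genes were below 0, where the median over listed plant genes moved to -0.26. Without LS2 the shares were 60.0% and 46.9%. With counts summed per Trinity gene they were 65% of loci with members and 50.8% of all loci tested. Groups did not overlap for 11 members (24.4%), with 4 higher and 7 lower in every LM library than in any LS library, beside 24.5% of all genes (12.9% higher and 11.5% lower). Across the members, log2 fold changes ran from -3.36 to 2.89, and standard errors were large for many of the widest ones.

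**Figure D1:**
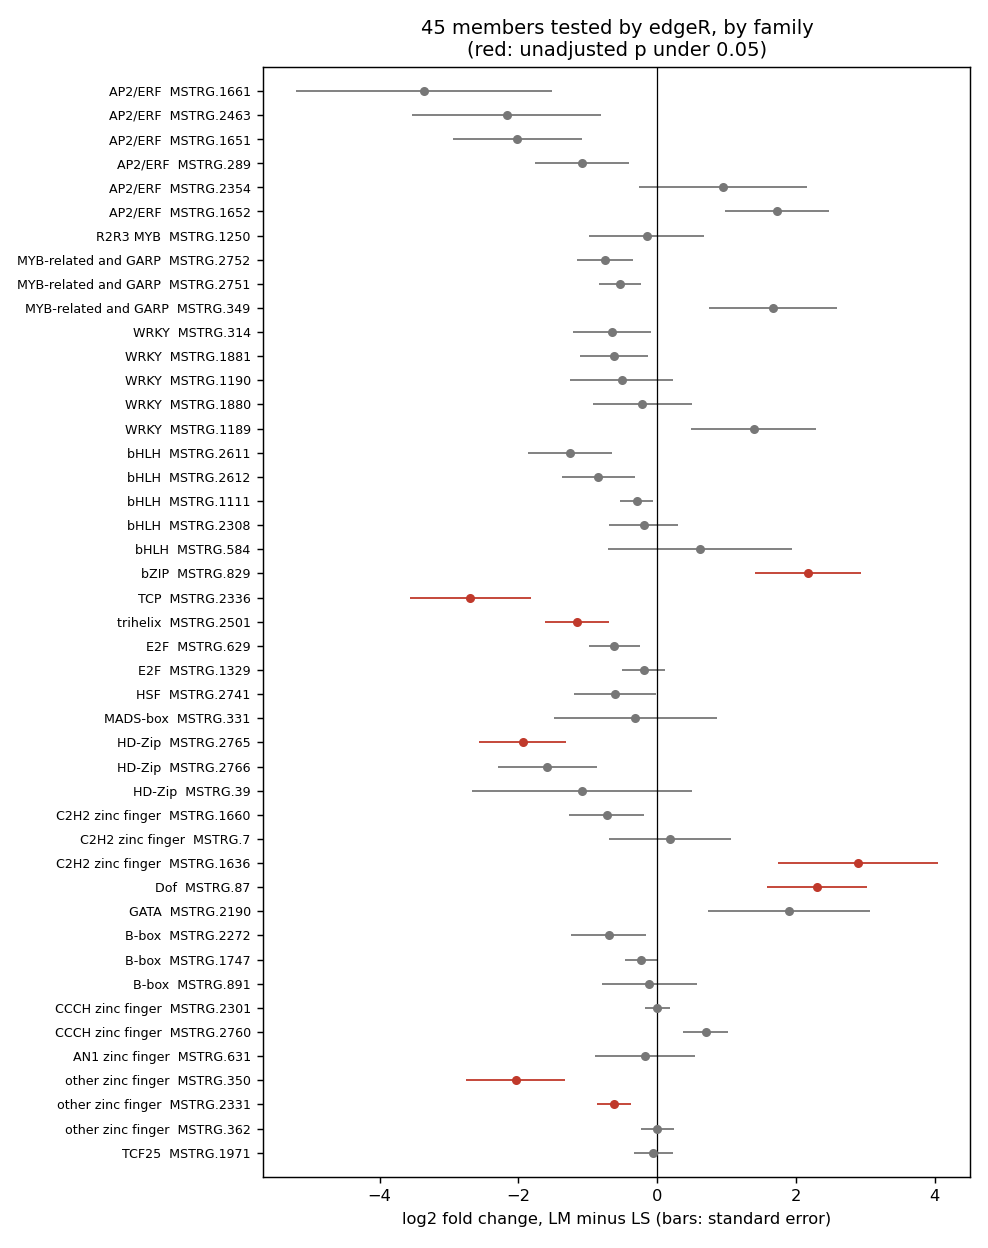
Log2 fold change (LM minus LS, horizontal axis) of the 45 members that passed the filter, grouped by family, with bars for the standard error from edgeR. The 8 genes with an unadjusted p under 0.05 are in red, 3 to the right of 0 and 5 to the left.

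A NAC gene, MSTRG.783, was singled out after its values were seen, since DESeq2 called it and edgeR's filter left it out. NAC proteins are a plant-specific family, and the description names NAC25 and NAC29, of which the latter, also called NAP, promotes leaf senescence in Arabidopsis. The gene had 474, 96 and 9 counts in LM3, LM4 and LM6, and 0, 0 and 1 in LS2, LS3 and LS6. The groups did not overlap, but LM6 was far nearer to the LS libraries than LM3 was. LM averaged 44.5 ± 55.5 CPM and LS 0.0876 ± 0.152 CPM (SD, n = 3 each). The ratio of its summed LM counts to its summed LS counts, scaled by library size, was 583. It has a 95% counting interval from 104 to 23082, since a single LS read stands in the denominator. This interval pools the reads of each group, and leaves out the spread between LM3, LM4 and LM6. DESeq2 called it with an adjusted p of 0.000192, and in 6 of 6 runs of DESeq2 that each left out 1 library (0.00667 at most). edgeR without its filter gave an adjusted p of 0.245, and over all alternatives the adjusted p ranged from 2.55e-07 to 0.380.

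A Dof gene, MSTRG.87, resembled DOF5.4, also named OBP4, which restrains cell growth and root hair elongation in Arabidopsis. It had 1158, 1288 and 237 counts in LM3, LM4 and LM6, and 296, 157 and 122 in LS2, LS3 and LS6. LM3 and LM4 were several times above all others, while LM6 lay below LS2 in CPM, so that the groups overlapped. LM averaged 212 ± 143 CPM and LS 43.1 ± 18.1 CPM (SD, n = 3 each), a 4.93-fold difference. Its log2 fold change was 2.30 (standard error 0.72, adjusted p = 0.237 from edgeR). DESeq2 gave an adjusted p of 0.0459 with all libraries, but 0.187 without LM3, 0.314 without LM4, 0.140 without LS3 and 0.197 without LS6. It was 3.52e-05 without LM6 and 0.0283 without LS2 (DESeq2), and over all alternatives the range was 3.52e-05 to 0.497. MSTRG.86, from the same Trinity gene, had counts of 28, 32 and 6 for LM against 10, 4 and 4 for LS. This second Dof gene was too low for the filter and shared the order of the groups' means with MSTRG.87, and DESeq2 called it only without LM6 (adjusted p = 0.0418, and 0.221 with all libraries).

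A TCP gene, MSTRG.2336, resembled TCP15 and TCP20, which control cell proliferation in growing organs of Arabidopsis. It had 24, 43 and 3 counts in LM3, LM4 and LM6, and 177, 154 and 146 in LS2, LS3 and LS6. The LS libraries were close to each other and all above LM, and LM6 was the lowest. LM averaged 5.64 ± 5.10 CPM and LS 36.4 ± 3.29 CPM (SD, n = 3 each), which is 6.46-fold lower in LM. Its log2 fold change was -2.69 (standard error 0.87, adjusted p = 0.243 from edgeR). The adjusted p of DESeq2 was 0.0433 with all libraries, 0.00411 without LM4 and 0.00102 without LM6. Without LM3 it was 0.164, and without LS2, LS3 or LS6 it was 0.127, 0.0870 and 0.159. It ranged from 0.00102 to 0.440 over all alternatives. For MSTRG.783, MSTRG.87 and MSTRG.2336 the direction was the same under every alternative that gave the gene an adjusted p.

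**Figure D2:**
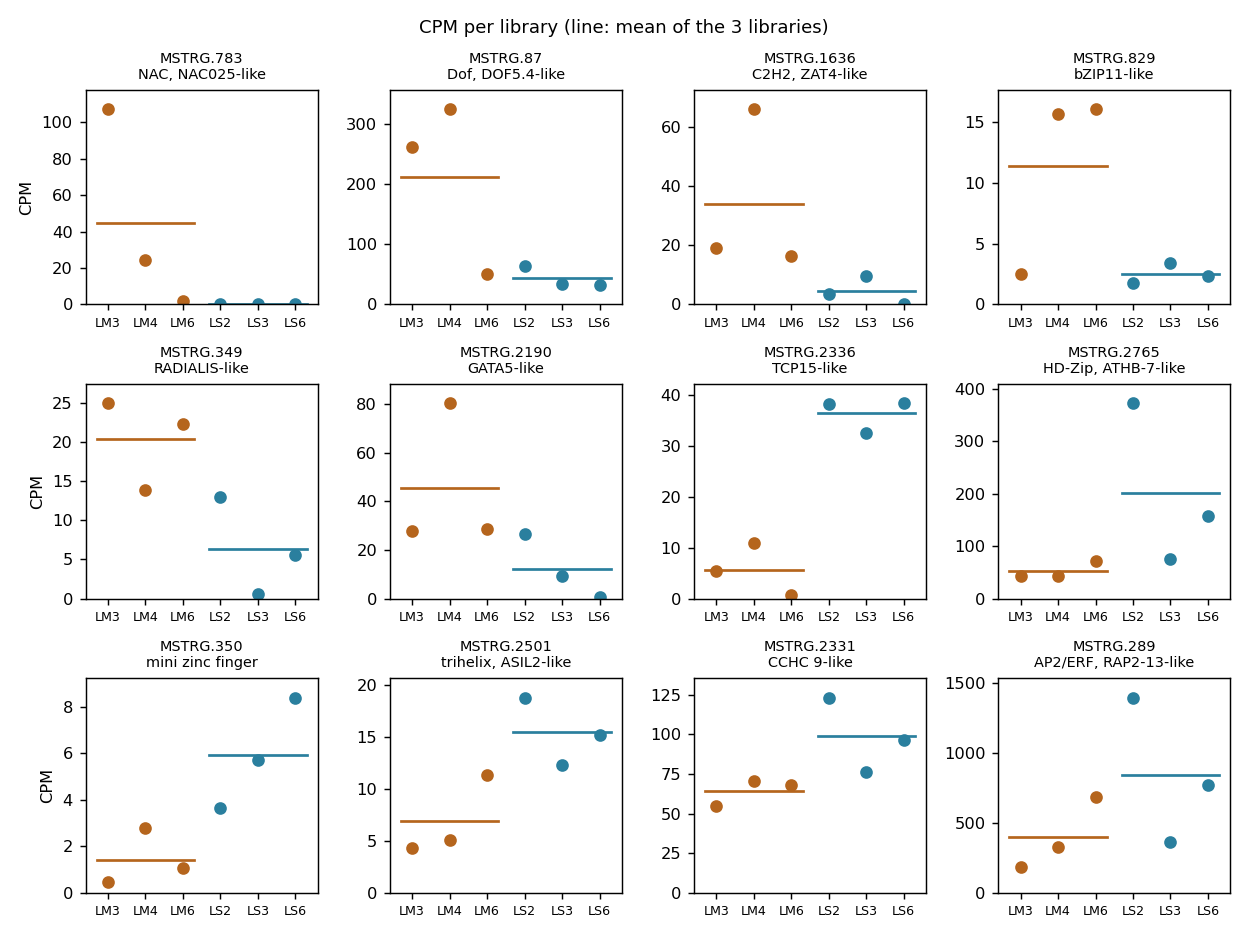
CPM (vertical axis, from 0) of 12 members in each of the 3 LM and 3 LS libraries, with a line at the mean of each group. The NAC gene ranges from 1.93 to 107 CPM within LM, and the TCP gene from 32.6 to 38.4 CPM within LS.

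The members higher in LM at an unadjusted p under 0.05 were, beside the Dof gene, a bZIP gene and a C2H2 zinc finger gene. The bZIP gene, MSTRG.829, resembled bZIP11, whose translation is repressed by sucrose in Arabidopsis and which acts in sugar signalling and amino acid metabolism. It had 11, 62 and 75 counts in LM3, LM4 and LM6, and 8, 16 and 9 in LS2, LS3 and LS6. LM4 and LM6 were above all other libraries, but LM3 lay among the LS libraries. LM averaged 11.4 ± 7.71 CPM and LS 2.49 ± 0.837 CPM (SD, n = 3 each), with a log2 fold change of 2.18 (standard error 0.76, adjusted p = 0.256 from edgeR). DESeq2 gave an adjusted p of 0.0933, and called the gene without LM3 (0.000515). In limma-voom its unadjusted p was 0.158. The C2H2 gene, MSTRG.1636, like ZAT4 and ZAT9, had 84, 262 and 77 counts in LM3, LM4 and LM6, and 16, 46 and 1 in LS2, LS3 and LS6. All LM libraries were above all LS libraries, and LM4 stood highest. The means were 33.8 ± 27.9 and 4.49 ± 4.82 CPM (SD, n = 3 each) in LM and LS, a 7.54-fold difference. Its log2 fold change of 2.89 (standard error 1.16, adjusted p = 0.302 from edgeR) ranged from 1.98 without LM4 to 4.11 without LS3. Without LS3, DESeq2 called it (adjusted p = 0.0122, and 0.108 with all libraries).

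Groups also did not overlap for a gene like RADIALIS and a GATA gene, both higher in LM. RADIALIS is a small MYB-related protein known from flower asymmetry in snapdragon. Its match MSTRG.349 had 110, 55 and 104 counts in LM3, LM4 and LM6, and 60, 3 and 21 in LS2, LS3 and LS6. The groups came close, with LS2 just under LM4. The GATA gene MSTRG.2190, like GATA5, had counts of 123, 319 and 134 for LM against 123, 44 and 2 for LS, in the same order of libraries. There, too, LS2 lay just under the lowest LM library, at 26.6 against 27.8 CPM. Their log2 fold changes were 1.67 (standard error 0.93, adjusted p = 0.406) and 1.90 (standard error 1.16, adjusted p = 0.452 from edgeR). Without LS2 they were 2.77 and 3.20. That of MSTRG.349 was 1.12 without LS3, and that of MSTRG.2190 was 1.19 without LM4.

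The members lower in LM at an unadjusted p under 0.05 were, beside the TCP gene, a homeodomain-leucine zipper gene, a mini zinc finger gene, a trihelix gene and a CCHC zinc finger gene. All 4 had every LM library below every LS library. The homeodomain-leucine zipper gene, MSTRG.2765, resembled ATHB-7, which is induced by abscisic acid and water deficit in Arabidopsis. It had 187, 174 and 335 counts in LM3, LM4 and LM6, and 1725, 353 and 602 in LS2, LS3 and LS6. LS2 was far above the rest, and LS3 at 74.7 CPM was next to LM6 at 71.7 CPM. The means were 52.6 ± 16.5 and 202 ± 154 CPM (SD, n = 3 each) in LM and LS. edgeR gave a log2 fold change of -1.94 (standard error 0.62, adjusted p = 0.243), and -1.12 without LS2. DESeq2 called the gene without LS3 (adjusted p = 0.00439, and 0.0629 with all libraries). MSTRG.2766, of the same Trinity gene, had counts of 3, 3 and 12 for LM against 30, 10 and 14 for LS, with a log2 fold change of -1.58 (standard error 0.71, adjusted p = 0.356).

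Mini zinc finger proteins carry the zinc finger of a homeodomain family without the homeodomain, and act in hormone responses in Arabidopsis. The gene MSTRG.350 had 2, 11 and 5 counts in LM3, LM4 and LM6, and 17, 27 and 32 in LS2, LS3 and LS6. These are low counts, with LM4 the highest of LM. edgeR gave a log2 fold change of -2.04 (standard error 0.71, adjusted p = 0.256), and DESeq2 called the gene only without LM4 (adjusted p = 0.0274, and 0.108 with all libraries). The trihelix gene MSTRG.2501 resembled ASIL2, a repressor of seed maturation genes in Arabidopsis seedlings. It had 19, 20 and 53 counts in LM3, LM4 and LM6, and 87, 58 and 58 in LS2, LS3 and LS6. LM6 lay close under the LS libraries, and edgeR gave a log2 fold change of -1.16 (standard error 0.47, adjusted p = 0.305), and -1.72 without LM6, where DESeq2 called the gene (adjusted p = 0.0193, and 0.204 with all libraries). The CCHC gene MSTRG.2331 had counts of 241, 280 and 317 for LM against 570, 359 and 368 for LS, in the same order of libraries. Its means, 64.3 ± 8.57 CPM in LM and 98.6 ± 23.6 CPM in LS (SD, n = 3 each), differed by 1.53-fold, the smallest difference among the 8 genes with an unadjusted p under 0.05. The log2 fold change was -0.62 (standard error 0.24, adjusted p = 0.299 from edgeR).

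The 7 genes of the AP2/ERF family, whose name goes back in part to the ethylene response, included 3 described as ERN1. In *Medicago truncatula*, ERN1 is needed for infection of roots by nodule bacteria and acts downstream of the symbiotic signalling pathway. The 3 genes here with this description differed in the order of the libraries. Their assigned taxa differed too, with *Dendrobium catenatum* for MSTRG.1651, Pentapetalae for MSTRG.1652 and *Olea europaea* var. *sylvestris* for MSTRG.2354. MSTRG.1651 had 54, 58 and 261 counts in LM3, LM4 and LM6, and 1056, 352 and 124 in LS2, LS3 and LS6. It was lowest in LM3 and LM4, whereas LM6 was above LS6 in CPM. MSTRG.1652 had counts of 292, 935 and 280 for LM against 258, 188 and 53 for LS, in the same order of libraries. All its LM libraries were above its LS libraries, by little for LM6 at 59.9 CPM against LS2 at 55.7 CPM. The log2 fold changes were -2.02 (standard error 0.93, adjusted p = 0.360) for MSTRG.1651 and 1.72 (standard error 0.75, adjusted p = 0.345) for MSTRG.1652 in edgeR, and DESeq2 gave 0.213 and 0.221 as adjusted p. Without LM6, DESeq2 called MSTRG.1651 (adjusted p = 0.0282), and without LS2 the log2 fold change of this gene in edgeR was -0.94.

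MSTRG.1651 and MSTRG.1652 came from separate Trinity genes of 1 Trinity cluster, so that reads of closely related sequences could be spread between them. Within a library, MSTRG.1652 had 5.41, 16.1 and 1.07 counts per count of MSTRG.1651 in LM3, LM4 and LM6. The ratio was 0.244, 0.534 and 0.427 in LS2, LS3 and LS6. It was above 1 in every LM library and below 1 in every LS library, a pattern noticed after the values were seen and not tested. MSTRG.2354, whose description pairs ERN1 with RAP2-11, had counts of 171, 170 and 145 for LM against 11, 251 and 10 for LS2, LS3 and LS6. LS3 was the highest of all 6 libraries and LS2 and LS6 were the lowest, while the LM libraries were alike. The log2 fold change was 0.95 (standard error 1.21, adjusted p = 0.722 from edgeR), 0.44 without LS6 and 3.87 without LS3. DESeq2 called the gene without LS3 (adjusted p = 2.50e-12) and in 0 of the 5 runs that left out another library.

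**Figure D3:**
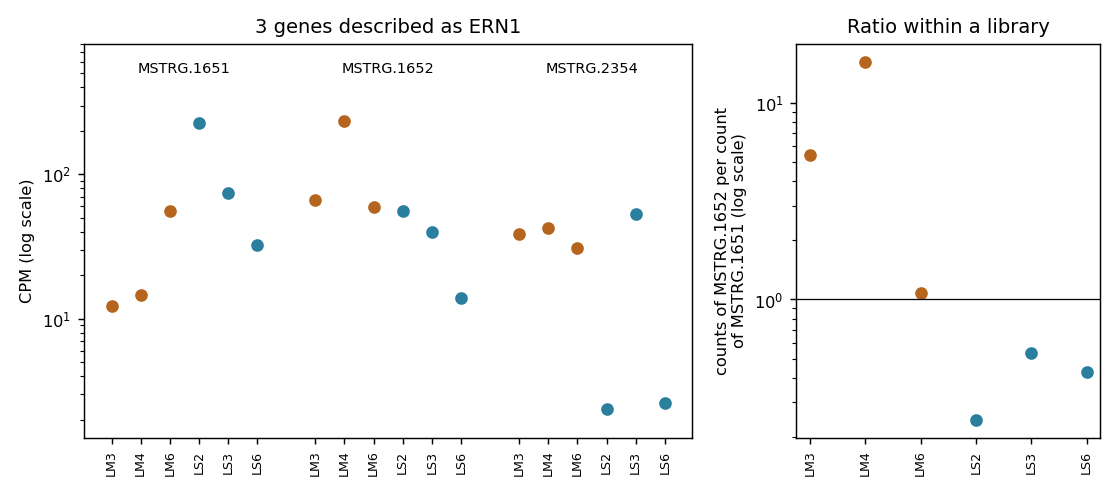
Left, CPM on a log scale of the 3 genes described as ERN1 in the LM libraries (brown) and LS libraries (blue). Right, counts of MSTRG.1652 per count of MSTRG.1651 in each library on a log scale, from 1.07 to 16.1 in LM and from 0.244 to 0.534 in LS.

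The other AP2/ERF genes were marked by single libraries. MSTRG.289, like RAP2-13 and RAP2-4, the latter of which responds to light, ethylene and drought in Arabidopsis, had the most counts of all members. There were 816, 1295 and 3183 counts in LM3, LM4 and LM6, and 6448, 1698 and 2934 in LS2, LS3 and LS6. LS2 was highest and LM3 lowest, and LM6 lay above LS3. The log2 fold change of -1.08 (standard error 0.68, adjusted p = 0.457 from edgeR) became -0.49 without LS2. MSTRG.1661, like the cytokinin response factor CRF2, had counts of 3, 6 and 48 for LM against 1, 485 and 103 for LS2, LS3 and LS6. Both the lowest and the highest library were LS libraries, and the log2 fold change of -3.36 had a standard error of 1.85 (adjusted p = 0.406 from edgeR). MSTRG.2463, like ERF021 and TINY, had 285 counts in LS6 and 6 to 42 in the other 5 libraries.

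Of the 7 MYB-related and GARP genes, 3 were tested. MSTRG.2751 resembled MYBS3, a repressor of amylase genes in rice. It had 1485, 923 and 856 counts in LM3, LM4 and LM6, and 1980, 1460 and 1346 in LS2, LS3 and LS6. LM3 lay within the LS range, and LM4 and LM6 below it. In edgeR this gene had a log2 fold change of -0.54 (standard error 0.30, adjusted p = 0.406), and MSTRG.2752 of the same Trinity gene had -0.75. The third gene of this locus, MSTRG.2753, had 1 to 6 counts per library. Of the 5 R2R3 MYB genes only MSTRG.1250, described as RAX3 or MYB36, passed the filter, with a log2 fold change of -0.15 and a standard error of 0.83. Its sign turned without LM3 (0.33) and without LS6 (0.53). R2R3 MYB and MYB-related genes below the filter included MSTRG.2472, with 14 counts in LM3 and 0 in all others, and MSTRG.2618, with 3 counts in LM3, 9 in LM6 and 0 in LS. A count of 0 over the LS libraries allows up to 3.

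WRKY proteins bind the W-box and many of them act in defence. Of 6 WRKY genes 5 were tested, 4 with a log2 fold change below 0 and 1 above 0, from -0.66 to 1.39, with adjusted p from 0.471 to 0.900. MSTRG.1189 and MSTRG.1190, both like WRKY65 and from a single Trinity gene, differed in sign. MSTRG.1189 had counts of 93, 104 and 47 for LM against 25, 72 and 4 for LS. MSTRG.1190 had counts of 58, 73 and 80 for LM against 20, 116 and 154 for LS2, LS3 and LS6. LS6 was the lowest library for the former and the highest for the latter, and the groups overlapped for both. The gene like WRKY45 and WRKY75, of which the latter acts in phosphate starvation in Arabidopsis, had 1 or 2 counts in each library (MSTRG.2526).

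All 5 basic helix-loop-helix genes were tested, 4 below 0 and 1 above 0. MSTRG.2611, like the atypical proteins bHLH149 and bHLH150, had counts of 4, 12 and 15 for LM against 38, 26 and 13 for LS. Its LM libraries were all below its LS libraries in CPM, by little between LM6 and LS6. In edgeR it had a log2 fold change of -1.26 (standard error 0.60, adjusted p = 0.361), while that of MSTRG.2612, of the same Trinity gene and with more counts, was -0.85 (standard error 0.53). MSTRG.1111, like bHLH13, a repressor of jasmonate responses in Arabidopsis, had 186 to 276 counts in LM and 242 to 322 in LS. It was among the steadier members, with a log2 fold change of -0.29 and a standard error of 0.24.

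Some genes with general roles had narrow ranges. A CCCH zinc finger gene, MSTRG.2301, had 349 to 485 counts over all 6 libraries and a log2 fold change of 0.00 (standard error 0.19). MSTRG.362, like a subunit of the SWR1 complex that exchanges histones in chromatin, had 225 to 342 counts and a log2 fold change of 0.00 (standard error 0.24). For MSTRG.1971, described as TCF25, a protein of ribosome quality control in yeast, they were 52 to 101 and -0.05 (standard error 0.28). A further CCCH gene, MSTRG.2760, like the oxidative stress protein OZF1 of Arabidopsis, had 1069, 760 and 559 counts in LM3, LM4 and LM6, and 417, 557 and 506 in LS2, LS3 and LS6. LM3 and LM4 were highest and LM6 lay among the LS libraries, with a log2 fold change of 0.70 (standard error 0.32, adjusted p = 0.360 from edgeR). The 2 E2F genes, whose family drives entry into DNA replication, had log2 fold changes of -0.61 (MSTRG.629) and -0.20 (MSTRG.1329), with adjusted p of 0.434 and 0.777 from edgeR, and the LM libraries of MSTRG.629 were all below its LS libraries. The 3 B-box genes, a family known from light signalling, had values from -0.70 to -0.11.

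Of the 21 members left out by the filter, with 10 to 580 counts in total and a median of 26, the mean CPM was higher in LM for 9 and lower for 12. Beside the NAC gene, groups did not overlap for MSTRG.1970, described as TCF25, with counts of 4, 5 and 7 for LM against 0, 4 and 0 for LS. They did not overlap either for MSTRG.396, like the rice MADS-box gene MADS26, with counts of 2, 7 and 1 for LM against 10, 32 and 28 for LS. DESeq2 gave the latter an adjusted p of 0.0644. Apart from the NAC gene, these genes rest on few reads, and of the 14 left-out members to which DESeq2 gave an adjusted p it called 1, the NAC gene.

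The members varied more within groups than the other listed plant genes did. The SD of log2 CPM over the 3 LM libraries had a median of 0.70 over the 45 members and 0.41 over the other 674 genes tested, and over the 3 LS libraries it was 0.82 and 0.44. It was above 1 for 17 members (37.8%) in LS, beside 22.4% of the other genes, and for 12 members (26.7%) in LM, beside 18.2%. The members and the other genes were not matched for count level, on which such an SD can depend. LS2 held the highest value of 19 members (42.2%), beside 24.2% of all genes tested, and LM3 the lowest value of 17 (37.8%), beside 18.6%. The sum over all 66 members was 3656 CPM in LS2 and between 1906 and 2324 CPM in the other 5 libraries. MSTRG.289 alone made up 38.1% of it in LS2 and 9.68% in LM3. Without that gene the sums ran from 1340 CPM (LM6) to 2263 CPM (LS2). The groups overlapped both with and without it.

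**Figure D4:**
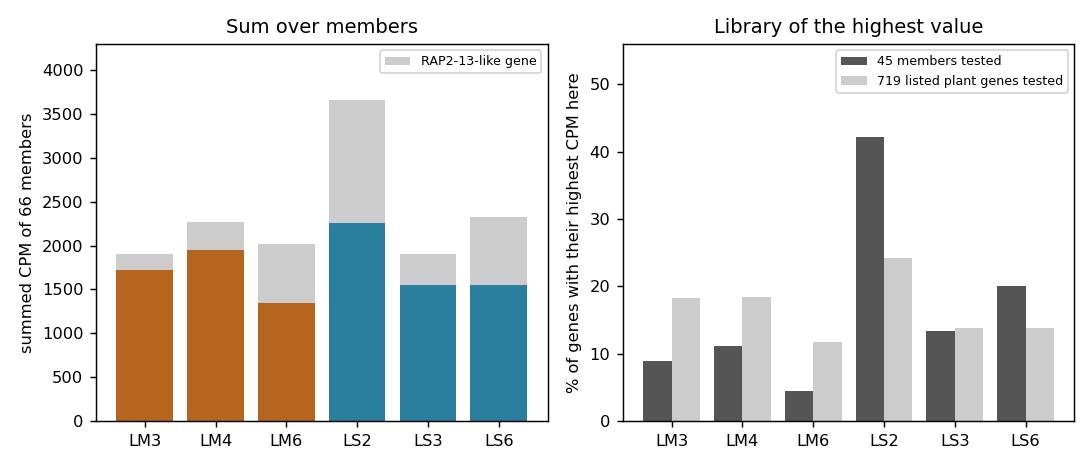
Left, summed CPM of the 66 members per library, with the RAP2-13-like gene MSTRG.289 in grey on top of the other 65 members (LM brown, LS blue). Right, percentage of the 45 members and of the 719 listed plant genes that had their highest CPM in each library, which was 42.2% and 24.2% in LS2.

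A principal component analysis of log2 CPM of the 45 members gave a first axis with 43.0% of the variance, beside 39.2% for all 719 genes. On it the LM libraries lay between -5.68 and -1.71 and the LS libraries between 1.42 and 8.31. The groups did not overlap, and LM6 was the LM library nearest to LS. Both also held over all 719 genes, with LM between -19.4 and -7.14 and LS between 5.22 and 21.3. The second axis, with 28.6%, separated LS2 at 7.26 from LS3 at -6.22, with the LM libraries between -0.73 and 1.00. Over all 719 genes the second axis, with 24.2%, likewise separated LS2 at 21.4 from LS3 at -19.4. LS libraries thus differed among themselves on both axes, LM libraries mainly on the first.

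The members belong to 53 Trinity genes, of which 12 hold more than 1 member. The authors' counting could split reads of a locus between such members, and counts over these were summed in an alternative fit. In 10 of the 12, the means of the members differed between groups in a common direction, and the exceptions were the WRKY65-like pair and the TCF25 pair. With counts summed per Trinity gene, 40 loci with members were tested, 8 (20%) had an unadjusted p under 0.05, beside 16.2% of all loci tested, and 0 were called.

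Other transcription regulators that the words of the rule did not reach made up 8 listed plant genes, and 5 of them were tested. Of these, 4 had a log2 fold change below 0 and 1 above 0, edgeR called 0, and 1 had an unadjusted p under 0.05. That gene, MSTRG.1156, like the MADS-box proteins AGL61 and AGL62 of the Arabidopsis female gametophyte and endosperm, had 29, 113 and 27 counts in LM3, LM4 and LM6, and 1, 2 and 0 in LS2, LS3 and LS6. All LM libraries were well above all LS libraries, with a log2 fold change of 5.76 (standard error 1.11, adjusted p = 0.180 from edgeR). DESeq2 called this gene and no other of the 8. MSTRG.1088, whose description names Nodulation-signaling pathway 1, a regulator of legume nodulation that acts upstream of ERN1, had counts of 42, 43 and 96 for LM against 56, 215 and 63 for LS. Its groups overlapped, and the log2 fold change was -0.86 (standard error 0.61, adjusted p = 0.502), and -0.09 without LS3. A further gene below 0, MSTRG.1356, like the MADS-box proteins AGL14 and SOC1, was at 0.09 without LM6. Histones, histone chaperones and a D-type cyclin, whose genes are tied to chromatin and the cell cycle, had 4 of 8 genes tested and 4 below 0. Of these, the histone H1 genes MSTRG.324 and MSTRG.325, of a single Trinity gene, were below 0 through LS2, with log2 fold changes of -1.68 and -1.50 that became 0.02 and 0.36 without it. RING-H2 finger proteins, which hold a zinc-binding fold and mark proteins for degradation, had 4 of 6 tested and 4 below 0, of which MSTRG.1588, like ATL72, rested on LS6 (-2.24, and 0.58 without that library). In each of these groups 0 genes were called by edgeR and by DESeq2, and 1 had an unadjusted p under 0.05, the chaperone MSTRG.2452 (log2 fold change -0.61, standard error 0.21) and MSTRG.382, like ATL13 (-1.05, standard error 0.34).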

How the data were processed

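The authors trimmed reads with bbduk, assembled all libraries with Trinity, aligned them with HISAT2 2.0.4, merged transcripts with StringTie 1.3.5 and counted with HTSeq. The deposited files hold these raw counts. Strandedness of counting is not given in the sources used here, so overlapping genes on opposite strands cannot be told apart. Rows that name no gene, which held 68.3% to 72.8% of the summed counts of a file, were left out. Descriptions, Trinity identifiers and plant reads per library, used as library sizes only, came from the study's supplement.

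edgeR 4.0.16 in R 4.3.3 was fitted to all listed plant genes (filterByExpr, minimum count 10, minimum total 15, TMM, quasi-likelihood, Benjamini-Hochberg, threshold 0.05). Alternatives used DESeq2 1.42.0, limma 3.58.1, other filters, library sizes and gene sets, and left out each library. For the PCA, 2 was the prior count of log2 CPM. Scripts were tested on simulated data. Members and lists were chosen with earlier results of these data known. Counting intervals (95%) cover counting error only and not the variation between libraries, and reads carry no molecular identifiers. The 3 libraries of a group were biological replicates according to the study.

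Named members passed the filter and had an unadjusted p under 0.05, a DESeq2 call, groups that did not overlap with an absolute log2 fold change of at least 1, or one of the 5 highest mean CPM, and any described as ERN1 or sharing a Trinity gene with one of these were added (22 genes). Others are given as examples of their family, chosen after their values were seen. Sequences were not used here.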

Additional observations from a re-analysis of the deposited data

Results flagged for a closer look

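Among the members that edgeR's filter on low counts kept out of the main comparison, 2 of 21 (9.52%) were above every LS library in every LM library, beside 8.86% of the 440 listed plant genes left out in the same way, so that the share is near the background. The NAC gene MSTRG.783 had a mean of 44.5 CPM in LM. MSTRG.1970, described as TCF25, had a mean of 1.22 CPM in LM, on 4 to 7 counts per library. A single such member (4.76%, beside 6.59%), MSTRG.396, was below every LS library in every LM library.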

How the results depend on the processing

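edgeR called 0 members under each edgeR and limma-voom alternative, including without any single library, and DESeq2 called 3. Runs of DESeq2 without 1 library, added after seeing the data, called 2, 4, 7, 4, 5 and 1 members and 32, 45, 59, 58, 76 and 29 listed plant genes, without LM3, LM4, LM6, LS2, LS3 and LS6 in turn. Of all listed plant genes, DESeq2 called 74, and edgeR called 4 both under the stricter filter (10 counts throughout a group) and in the fit of all genes. Members with an unadjusted p under 0.05 numbered 14 in DESeq2 (21.2%, beside 16.2% of listed plant genes). In edgeR with 1 library left out they numbered 2 to 11 (4.35% beside 11.9% without LM3, 22% beside 15% without LS2). In those DESeq2 runs they numbered 9, 6, 15, 16, 17 and 9. Their shares were 13.8%, 9.09%, 22.7%, 24.2%, 25.8% and 13.6%, beside 12.4%, 11.1%, 16.9%, 13.8%, 17.6% and 12.3% of listed plant genes. The log2 fold change of 23 named members changed sign under 0 of the alternatives that gave the gene an adjusted p. Alternatives without one were not looked at for a change of sign. Only 4 alternatives thus counted for MSTRG.2753, and 11 each for MSTRG.86 and MSTRG.783. The share of members below 0 was 71.1% in the main fit, beside 51.3% of listed plant genes. Over the alternatives it ran from 57.6% (beside 49.6%, DESeq2 without LS2) to 77.8% (beside 64.7%, fit of all genes). For the NAC gene MSTRG.783, which the main filter left out, DESeq2 is taken as the main value. Replicate numbers joined LM3 with LS2, LM4 with LS3 and LM6 with LS6. Deviations from the group mean correlated at -0.06, 0.16 and 0.14 for these across 719 genes. For the other combinations the values ran from -0.23 to 0.10. With 3 libraries per group this cannot decide whether the libraries were paired. With the replicate block, edgeR called 0 members, and 7 (15.6%) had an unadjusted p under 0.05, beside 14% of listed plant genes. The median of 26 counts in total over the 21 members below the filter limits what they can show, apart from MSTRG.783 with 580.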
